A study of Homo sapiens with 6 samples.

Results

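Interferon-stimulated genes and the genes that load peptides onto class I molecules were followed in 22RV1 cells, an established human prostate cancer line, after stable expression of a microRNA (miRNA) from a lentiviral vector. The set held 38 genes named by hand, and its members were all array probes that carry one of these gene names. All 38 names were on the array, with 58 probes of the 58201 gene probes and 43317 gene names in all. The miRNA lines carried pLemiR-338-5p (replicates 1, 2 and 3) or pLemiR-421 (a sample labelled as a pool, and replicates 1 and 2). The comparator on every array was 22RV1 carrying pLemiR-RFP, a red fluorescent protein vector, and all 3 lines were kept in puromycin. Every array was 2-colour, with control RNA in Cy3 and RNA of the miRNA line in Cy5, without dye swaps, so each value below is a log2 ratio of line over control. The control cells carried a lentiviral vector and were under puromycin too, so a response to vector or selection that the lines share enters both dyes and is not seen in the ratio. Whether a line is 1 clone, what the pool holds and whether 1 control culture served all arrays are not given in the labels, so the spread between arrays may be technical.

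Interferons are secreted proteins that bind receptors on the cell surface and, through factors that include STAT2 and IRF9, switch on a broad set of antiviral genes. RNA sensors such as RIG-I (DDX58) and MDA5 (IFIH1) detect viral RNA and start interferon production. The same signals raise the genes that cut cytosolic proteins into peptides, carry these into the endoplasmic reticulum and present them on class I molecules to T cells, a route that tumours often lose.

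The expressed miRNAs are shown because the lines were made to express them. Their mature sequences (RefSeq, GRCh38.p14) follow, with the seed, bases 2 to 8, in capitals. The seeds are equal at 4 of 7 positions.
hsa-miR-338-5p, chr17:81125923-81125944, minus strand: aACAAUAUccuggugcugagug
hsa-miR-421, chrX:74218392-74218414, minus strand: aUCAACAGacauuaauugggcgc

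Promoters are shown for 6 members that differ in response in the values below. RefSeq (GRCh38.p14) promoter windows, 250 bases before to 50 after the start, were matched for 31 of the 38 members, with DDX58 found under its current symbol RIGI. The core of the interferon-stimulated response element, GAAANNGAAA on either strand, was in 42 windows of these members 24 times (57.1%, in 20 of 31 genes) and in 3.57% of all 35116 windows. HLA-B and HLA-C have no such match but hold a form shorter by 1 base, GAANNGAAA, searched for after their sequences had been read. That form was in 21 of the 42 member windows and in 7.66% of all windows. The STAT site TTCNNNGAA was in 21.4% of the member windows and in 7.66% of all, and it can overlap either of the other motifs. A match is a description of letters and not a site shown to be used. Each stretch of 100 bases lies wholly before the start, 5' to 3' on the gene's strand, with the shorter form (HLA-B, HLA-C) or the full core (HLA-F, B2M, TAP1, ISG15) in capitals, overlapping matches run together.
HLA-B, chr6:31357275-31357374, minus strand: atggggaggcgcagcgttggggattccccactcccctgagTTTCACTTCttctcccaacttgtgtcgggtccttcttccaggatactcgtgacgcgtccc
HLA-C, chr6:31272184-31272283, minus strand: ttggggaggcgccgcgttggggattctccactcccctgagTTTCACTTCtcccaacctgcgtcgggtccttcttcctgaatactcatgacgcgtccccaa
HLA-F, chr6:29723238-29723337, plus strand: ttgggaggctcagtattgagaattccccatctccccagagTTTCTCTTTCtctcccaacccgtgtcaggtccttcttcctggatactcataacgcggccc
B2M, chr15:44711333-44711432, plus strand: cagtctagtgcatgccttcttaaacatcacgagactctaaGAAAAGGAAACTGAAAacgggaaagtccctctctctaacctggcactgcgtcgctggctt
TAP1, chr6:32853779-32853878, minus strand: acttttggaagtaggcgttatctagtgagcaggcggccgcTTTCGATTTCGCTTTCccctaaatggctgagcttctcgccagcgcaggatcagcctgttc
ISG15, chr1:1013344-1013443, plus strand: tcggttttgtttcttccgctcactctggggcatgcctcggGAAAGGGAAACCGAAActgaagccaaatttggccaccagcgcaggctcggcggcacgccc

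Between 44.3% and 47.9% of gene spots were well above background in Cy3 and between 41.9% and 48.3% in Cy5, and 0 were saturated. All 9 prostate luminal markers were tested, and their means lay on both sides of 0. They ranged from -1.41 to 1.41 with miR-338-5p (median -0.64) and from -1.03 to 1.13 with miR-421 (median -0.51). With miR-338-5p 0 of their 16 probes were called higher and 3 lower, beside 3.76% and 5.26% of all tested probes. With miR-421 3 were higher and 2 lower, beside 9.01% and 12.5%. Between the lines 1 was called, beside 0.0473%. Of 11 leukocyte markers 8 were tested, with medians of 0.02 and 0.11, and 1 of their 9 tested probes was called, higher with miR-421. Of 4 tested fibroblast probes 1 was called, LUM with miR-421 (2.14, limma adjusted p 0.0438), and of 3 endothelial probes 0 were called by limma (0 at an unadjusted p below 0.05). The part of these markers in the values below was not tested. These are bulk RNA samples, in which fewer cells of a type and less RNA per cell cannot be told apart.

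Probes entered the test if 3 or more of the 6 arrays showed them well above background in Cy3 or Cy5, and 42 member probes of 31 genes did. Called means an adjusted p below 0.05 in limma's moderated test with Benjamini-Hochberg adjustment over all tested probes. Probes are counted singly here and below, though some HLA-B and HLA-C probes overlap on the genome and may carry 1 signal. In the miR-338-5p line 8 member probes were higher than control and 1 was lower, where 3.76% of all tested probes were called higher and 5.26% lower. In the miR-421 line the split was the other way, with 1 member probe higher and 8 lower, beside 9.01% higher and 12.5% lower over all tested probes. For the difference between the lines 0 member probes were called by limma (13 had an unadjusted p below 0.05), beside 0.0473% of all tested probes. The 3 miR-338-5p arrays lay wholly above the 3 miR-421 arrays for 16 of the 42 member probes and wholly below for 1, where these shares over all probes were 10.1% and 9.64%. Over the 31 tested genes the median was 0.05 with miR-338-5p, or -0.034 with median centring where that of all genes was -0.078. With miR-421 it was -0.045. Over all tested genes the medians were -0.001 and 0.006. The comparisons with control share the control line, and a dye bias of a probe would enter both but cancel between the lines.

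**Figure D1:**
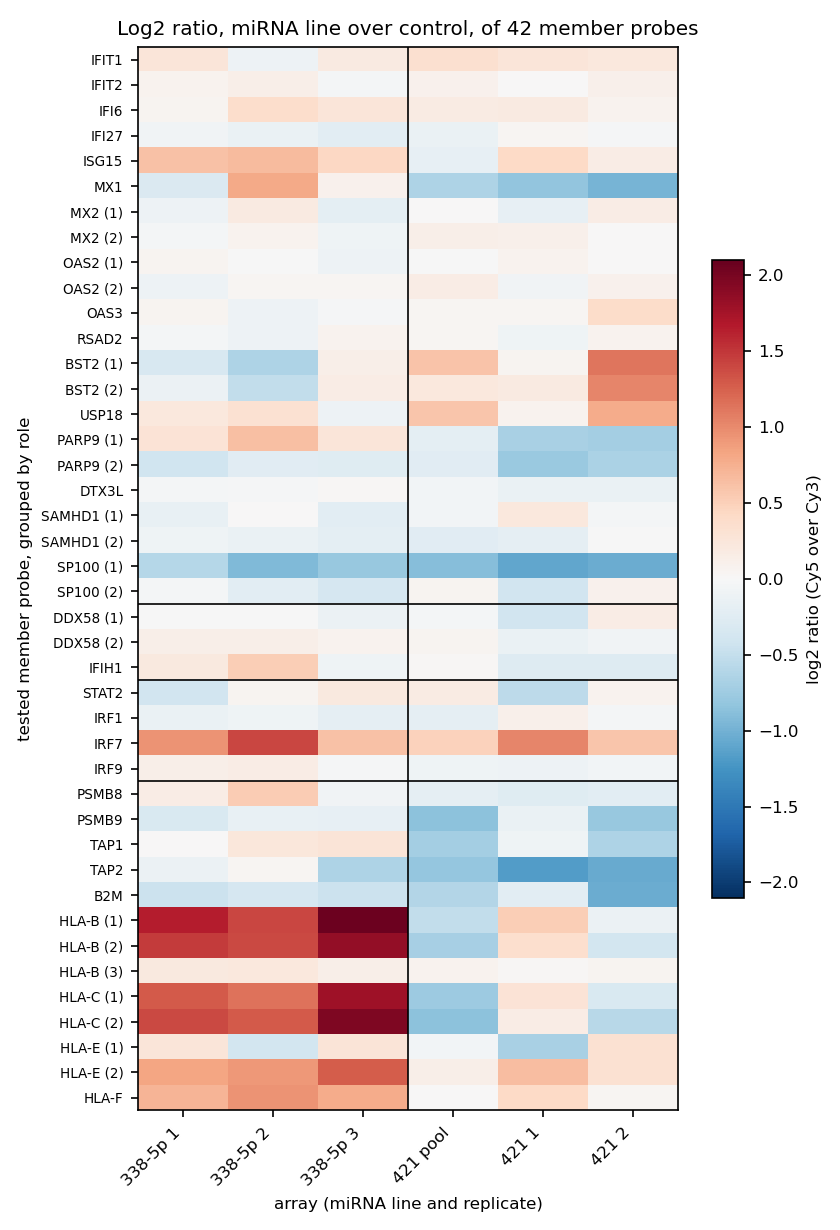
Log2 ratio of miRNA line over control for each tested member probe (rows, grouped from the top as antiviral effectors, RNA sensors, transcription factors and antigen presentation) on each of the 6 arrays (columns). Numbers separate probes of 1 gene, brightest first. The class I probes HLA-B (1) and (2) and HLA-C (1) and (2) exceed 1.1 in each miR-338-5p column and range from -0.87 to 0.51 in the miR-421 columns.

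Probes of class I heavy chains, the membrane proteins that display peptides, were called higher in the miR-338-5p line. The brightest HLA-E probe and the dimmest tested HLA-B probe were not. The peptide transporter subunits TAP1 and TAP2, the immunoproteasome subunit PSMB9 and the class I light chain B2M were called lower in the miR-421 line. PSMB9 and B2M were also below 0 on every miR-338-5p array, though not called there, and their lines overlapped. Of the 13 tested probes of the 9 genes, 6 were higher and 0 lower with miR-338-5p, and 0 were higher and 4 lower with miR-421, where over all tested probes 3.76% and 5.26%, and 9.01% and 12.5%, were called. Without overlap, the miR-338-5p arrays lay above the miR-421 arrays for 10 of the 13, beside 10.1% of all probes. The median of the 9 genes was 0.17 with miR-338-5p and -0.27 with miR-421.

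The brightest HLA-B probe (NM_005514, chromosome 6, 31321663 to 31321722, minus strand, hg19) gave log2 ratios of 1.66, 1.40 and 2.05 in miR-338-5p replicates 1, 2 and 3, and of -0.52, 0.51 and -0.13 in the miR-421 pool, replicate 1 and replicate 2. The groups did not overlap. In normalized intensity, which holds the offset of 50, control lay between 450 and 601 on all arrays, the miR-338-5p line between 1538 and 2164 and the miR-421 line between 394 and 641. The mean was 1.70 ± 0.33 with miR-338-5p (SD, n = 3; limma adjusted p 0.0136) and -0.05 ± 0.52 with miR-421 (limma adjusted p 0.903). The difference of 1.75 between lines missed the threshold (limma adjusted p 0.116). The second HLA-B probe (31321653 to 31321712) gave 1.46, 1.39 and 1.85 against -0.69, 0.35 and -0.38, averaging 1.57 ± 0.25 with miR-338-5p (limma adjusted p 0.0145). The third HLA-B probe was dim, well above background in Cy5 on 3 of 3 miR-338-5p and 0 of 3 miR-421 arrays, and its value of 0.18 was not called (limma adjusted p 0.0776). It was 0.83 with plain background subtraction (0.0469).

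HLA-C, a second classical class I heavy chain, followed the same order. Its brightest probe (NM_001243042, chromosome 6, 31236617 to 31236676, minus strand, hg19) gave 1.29, 1.14 and 1.79 with miR-338-5p and -0.76, 0.28 and -0.32 with miR-421, which average 1.40 ± 0.34 (SD, n = 3; limma adjusted p 0.0207) against -0.27 ± 0.52. The other HLA-C probe gave 1.39, 1.30 and 1.96 against -0.87, 0.16 and -0.58, a mean of 1.55 ± 0.36 with miR-338-5p (limma adjusted p 0.0175) and a difference of 1.97 between lines (limma adjusted p 0.1). On both probes every miR-338-5p array was higher than every miR-421 array. Not every probe of these genes measures 1 gene. Both bright HLA-B probes list HLA-C transcripts among their accessions, and the second HLA-C probe lies at 31321644 to 31321703, overlapping both HLA-B probes, and shares a run of 41 of 60 bases with the first HLA-B probe and 33 with the second. The other HLA-C probe, the brightest, lists HLA-C alone. It shares at most 10 bases in a row with any tested probe of HLA-B, HLA-E, HLA-F or HLA-G. Probes were compared only with each other and not with the transcripts of other class I genes. The shared runs therefore cannot show that this probe measures HLA-C alone. The rise is thus one of class I signal, and its split between HLA-B and HLA-C is uncertain.

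HLA-F, a non-classical class I chain, gave 0.71, 0.94 and 0.78 with miR-338-5p and 0.01, 0.42 and 0.04 with miR-421. Its mean with miR-338-5p was 0.81 ± 0.12 (SD, n = 3; limma adjusted p 0.0128), and this probe also lists a transcript of HLA-H. The other HLA-F probe, which lists HLA-F alone, was too dim to be tested. It was well above background in Cy3 on 0 of 6 arrays and in Cy5 on 1 miR-338-5p array. The rise is thus not shown for HLA-F alone. The probes of HLA-E, a class I chain that inhibits natural killer cells, disagreed. The dimmer probe (chromosome 6, 30460729 to 30460788, plus strand, hg19) gave 0.83, 0.91 and 1.27 against 0.13, 0.64 and 0.32, a mean of 1.00 ± 0.24 with miR-338-5p (limma adjusted p 0.014). The brightest probe (30460882 to 30460941) gave 0.26, -0.38 and 0.28 against -0.06, -0.68 and 0.31, a mean of 0.05 ± 0.38 (0.907) in which the lines overlapped. Both HLA-E probes list HLA-E alone.

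Leaving out 1 array ended class I calls though the values moved little. Without miR-338-5p replicate 3 the first HLA-B probe was 1.53 (limma adjusted p 0.0603), the second 1.43 (0.067), the HLA-C probes 1.21 (0.0817) and 1.34 (0.0718), HLA-E 0.87 (0.0573) and HLA-F 0.83 (0.0595). Without replicate 1 the HLA-B probes were 1.72 (0.0555) and 1.62 (0.0564) and the HLA-C probes 1.46 (0.0692) and 1.63 (0.0622). Without replicate 2 the second HLA-B probe was 1.66 (0.0513), the HLA-C probes 1.54 (0.0592) and 1.67 (0.0561), HLA-E 1.05 (0.0513) and HLA-F 0.75 (0.0531). Without miR-421 replicate 2 the brightest HLA-C probe was 1.40 (0.0545).

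**Figure D2:**
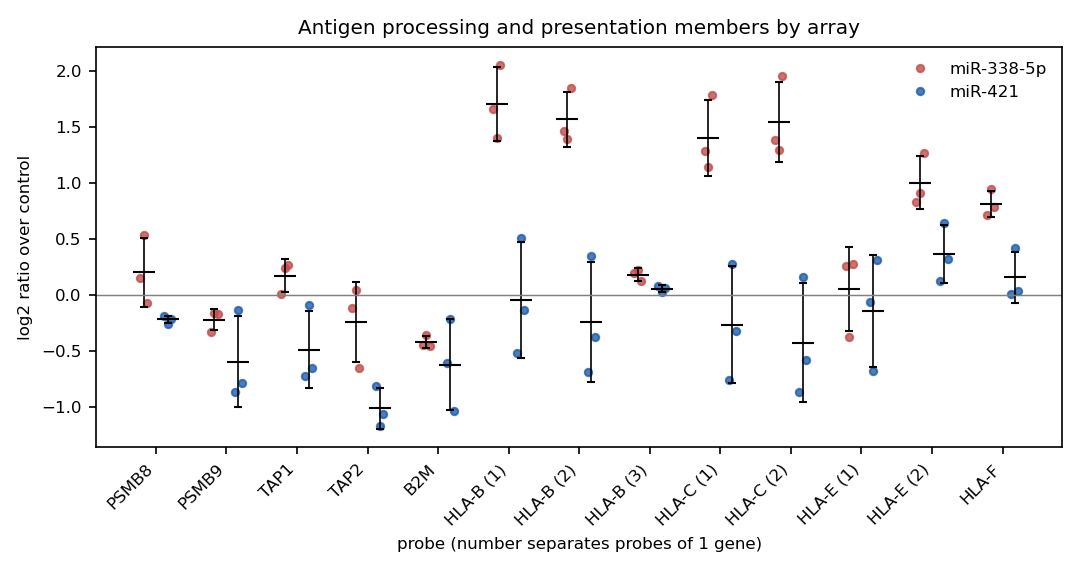
Log2 ratio over control for each array (points) of the 13 tested antigen presentation probes, with mean and SD (bars, n = 3), for miR-338-5p (red) and miR-421 (blue). The 4 bright HLA-B and HLA-C probes separate the lines, while TAP2 and B2M are below 0 in every miR-421 array.

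The light chain did not follow the heavy chains. B2M (NM_004048, chromosome 15, 45007773 to 45007832, hg19), which class I molecules generally need to reach the surface, gave -0.45, -0.36 and -0.46 with miR-338-5p and -0.61, -0.22 and -1.04 with miR-421. All 6 arrays were below 0 and the lines overlapped. The mean was -0.42 ± 0.06 with miR-338-5p, not called (SD, n = 3; limma adjusted p 0.128), and -0.62 ± 0.41 with miR-421 (limma adjusted p 0.0326). With median centring the miR-338-5p value was called (-0.55, 0.0447), as it was without miR-421 replicate 1 (0.0444). The miR-421 call was lost in 9 of 17 alternatives, among them background subtraction (-0.60, 0.0651), the image software's ratio (-0.56, 0.0919), the authors' deposited table (-0.56, 0.0859), no filter (0.0646) and the line's own arrays (0.0911). It was also lost without replicate 2 (-0.42, 0.101), without the pool (-0.63, 0.0996) and without miR-338-5p replicates 1 (0.0592) and 3 (0.0553).

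TAP1 and TAP2 together form the transporter that brings peptides to class I molecules. TAP2 (NM_001290043, chromosome 6, 32793222 to 32793281, minus strand, hg19) gave -0.12, 0.04 and -0.65 with miR-338-5p and -0.81, -1.17 and -1.06 with miR-421, without overlap. With miR-421 it fell by 1.01 ± 0.18 (SD, n = 3, limma adjusted p 0.0094), and the call was kept in 16 of 17 alternatives. It was lost without miR-421 replicate 2 (-0.99, 0.065), where calls over all tested probes fell from 5912 to 627. The image software's ratio put the same fall at -1.79 (0.0108). TAP1 gave 0.01, 0.24 and 0.27 against -0.72, -0.09 and -0.65, again without overlap. Its mean of -0.49 ± 0.34 with miR-421 was just called (limma adjusted p 0.0476), and was not in 11 of 17 alternatives, among them those without the pool (-0.37, 0.176), without miR-421 replicate 2 (-0.41, 0.199) and without each miR-338-5p replicate (0.0701, 0.0679 and 0.0726).

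PSMB8 and PSMB9 replace constitutive proteasome subunits when interferon acts. PSMB9 gave -0.33, -0.16 and -0.17 with miR-338-5p and -0.87, -0.13 and -0.79 with miR-421, where replicate 1 stood apart from the others, and the mean of -0.60 ± 0.40 was called (SD, n = 3; limma adjusted p 0.0366). That call was lost in 10 of 17 alternatives, among them those without the pool (-0.46, 0.134), without miR-421 replicate 2 (-0.50, 0.164) and without each miR-338-5p replicate (0.0624, 0.0549 and 0.0605). PSMB8 was dim. It gave 0.15, 0.53 and -0.08 against -0.19, -0.26 and -0.22, without overlap and not called in either line (limma adjusted p 0.312 and 0.211). Its Cy5 signal was not well above background on any miR-421 array (0 of 3), while Cy3 was on 6 of 6. With Cy5 set no lower than the dimmest signal well above background, the mean was 1.15-fold lower in the miR-421 line. That value is on a scale that holds the offset and makes no allowance for spread, so it does not establish a fall. Plain background subtraction gave -1.87 with miR-421 (limma adjusted p 0.0173), and the image software's ratio gave -2.28, -2.71 and -2.14, a mean of -2.37 (0.00917).

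Among transcription factors, IRF7, which drives the interferon alpha genes and is itself interferon-induced, was called higher in both lines, the only tested member so called. Its log2 ratios were 0.95, 1.41 and 0.62 with miR-338-5p and 0.48, 1.03 and 0.58 with miR-421 (NM_004031, chromosome 11, 612643 to 612702, minus strand, hg19). All 6 arrays were above 0 and the lines overlapped. Control signals lay between 124 and 172, those of the miR-338-5p line between 241 and 410 and those of the miR-421 line between 221 and 252. The means were 0.99 ± 0.40 (SD, n = 3; limma adjusted p 0.0265) and 0.70 ± 0.29 (0.0368). The miR-338-5p call was lost without any 1 of its own replicates (1.01, 0.78 and 1.18 without replicates 1, 2 and 3; 0.0886, 0.0791 and 0.0551), without the miR-421 pool (0.0509) and without miR-421 replicate 2 (0.0616). The miR-421 call was lost without the pool (0.80, 0.0714), replicate 1 (0.53, 0.131) or replicate 2 (0.75, 0.12) and without miR-338-5p replicate 1 (0.0655).

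The factors that carry the interferon signal to DNA were not called. STAT2 gave -0.40, 0.06 and 0.20 with miR-338-5p and 0.17, -0.55 and 0.07 with miR-421, means of -0.05 ± 0.32 and -0.10 ± 0.39 (SD, n = 3; limma adjusted p 0.897 and 0.715). IRF9 gave 0.12, 0.16 and -0.02 against -0.09, -0.11 and -0.05, which did not overlap, with means of 0.09 ± 0.09 and -0.08 ± 0.03 (0.393 and 0.333). IRF1, an activator of class I genes, was near background, with means of -0.14 and -0.04.

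The RNA sensors were not called on any of their 3 probes in either line. The brightest probe of DDX58 gave -0.004, -0.003 and -0.12 with miR-338-5p and -0.04, -0.40 and 0.16 with miR-421, means of -0.04 ± 0.07 and -0.09 ± 0.29 (SD, n = 3; limma adjusted p 0.848 and 0.577). IFIH1 gave 0.20, 0.52 and -0.09 against 0.02, -0.27 and -0.27, means of 0.21 ± 0.31 and -0.17 ± 0.16 (0.342 and 0.363). The lines overlapped on both of these probes.

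Of the 23 antiviral effectors, most were low in these cells. In the control dye 12 were well above background on all 6 arrays, 4 on some (DTX3L, IFIT2, OAS2 and RSAD2) and 7 on none (0 arrays). Those 7, IFIT3, IFI44, IFI44L, OAS1, OASL, HERC5 and XAF1, were also too dim in Cy5 to be tested, and IFIT3, IFI44L, OAS1 and XAF1 were well above background on 0 arrays in either dye. Of the 22 effector probes tested, 1 was higher (ISG15) and 1 lower (SP100) with miR-338-5p, and 0 were higher and 4 lower with miR-421 (MX1, both PARP9 probes and SP100). The shares over all tested probes were of similar size (3.76% and 5.26%, 9.01% and 12.5%). The median of the 16 tested genes was -0.02 and 0.03. No tested probe of IFIT1, IFIT2, IFI6, IFI27, MX2, OAS2, OAS3, RSAD2, BST2, USP18, DTX3L or SAMHD1 was called in either line, though other background treatments called some of them (below 0.05 for IFIT1, USP18, DTX3L and SAMHD1, with values further on).

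ISG15, a ubiquitin-like protein joined to other proteins in infected cells, gave 0.62, 0.66 and 0.43 with miR-338-5p and -0.18, 0.42 and 0.16 with miR-421 (NM_005101, chromosome 1, 949567 to 949626, plus strand, hg19). The lines did not overlap, and the mean with miR-338-5p was 0.57 ± 0.12 (SD, n = 3; limma adjusted p 0.0392). The signal was high, between 5808 and 8222 in control and between 10156 and 13007 in the miR-338-5p line. The call was lost in 9 of 17 alternatives, among them background subtraction (0.58, 0.081), the image software's ratio (0.54, 0.107), and those without miR-338-5p replicates 1 (0.55, 0.131), 2 (0.53, 0.143) and 3 (0.64, 0.102) or miR-421 replicate 2 (0.0822).

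SP100, a component of PML nuclear bodies that restricts viral genomes, was lower in both lines and the only member called lower in both. Its brightest probe (NM_003113, chromosome 2, 231380490 to 231380696, plus strand, hg19) gave -0.60, -0.92 and -0.80 with miR-338-5p and -0.90, -1.08 and -1.05 with miR-421. All 6 arrays were below 0 and the lines overlapped. It fell by 0.77 ± 0.16 (SD, n = 3; limma adjusted p 0.00894) and by 1.01 ± 0.10 (0.00283), and both calls were kept without any single array. Another SP100 probe, for a transcript at 231410216 to 231410275, gave means of -0.21 and -0.09 and was not called (0.312 and 0.628). A further SP100 probe (231331037 to 231331861), which also lists NM_003113, was well above background on 0 of 6 arrays in either dye and was not tested. Its mean log2 intensity was 5.78, against 13.16 for the brightest probe, so both calls rest on 1 probe. Why these probes differ was not tested. In the authors' deposited table, which gives 1 value per gene name, SP100 was -0.64 and -0.65 and not called by limma (0.102 and 0.0518).

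MX1, a GTPase that blocks influenza virus, gave -0.31, 0.80 and 0.09 with miR-338-5p, where replicate 2 stood high, and -0.65, -0.83 and -0.97 with miR-421 (NM_002462, chromosome 21, 42831014 to 42831073, plus strand, hg19). The lines did not overlap. With miR-421 the mean was -0.82 ± 0.16 (SD, n = 3; limma adjusted p 0.0365), and the image software's ratio gave -1.85 (0.0137). That call was lost without the pool (-0.90, 0.086), replicate 1 (-0.81, 0.112) or replicate 2 (-0.74, 0.158) of miR-421 and without miR-338-5p replicate 3 (0.0597).

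PARP9, an ADP-ribosyltransferase that works with the ubiquitin ligase DTX3L in the interferon response, was lower with miR-421 on both of its probes. The first gave -0.21, -0.68 and -0.71 there, on average -0.53 ± 0.28 (SD, n = 3; limma adjusted p 0.0327), and 0.29, 0.62 and 0.25 with miR-338-5p, so the signs of the lines were opposite. The second gave -0.24, -0.79 and -0.67, a mean of -0.57 ± 0.29 (0.0207), and -0.41, -0.24 and -0.26 with miR-338-5p, so that its lines overlapped. The probes thus disagree for miR-338-5p. The calls were lost without miR-421 replicate 1 (-0.46, 0.12 and -0.46, 0.0692) and without replicate 2 (-0.45, 0.151 and -0.51, 0.107), and for the first probe also without miR-338-5p replicates 1 (0.0563) and 3 (0.0503). DTX3L was dim, with a mean of -0.11 and Cy5 well above background on 0 of 3 miR-421 arrays. Background subtraction gave it -1.21 with miR-421 (limma adjusted p 0.0285).

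**Figure D3:**
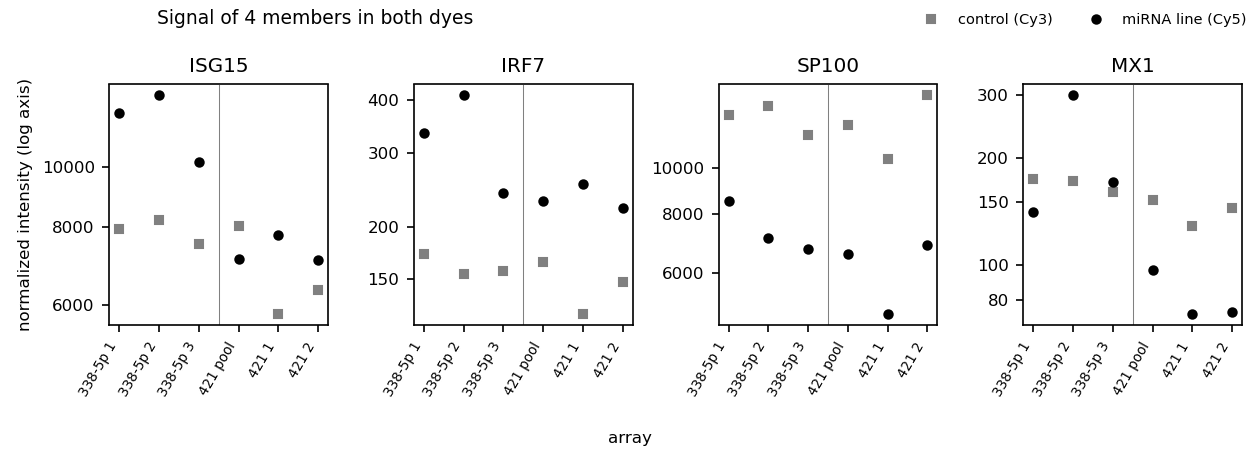
Normalized intensity (log axis) of the ISG15, IRF7, MX1 and brightest SP100 probes in control (Cy3, grey squares) and miRNA line (Cy5, black circles) on each array. IRF7 is above control and SP100 below it on all 6 arrays, while for ISG15 and MX1 the ratios of the lines do not overlap but their difference was not called (limma adjusted p 0.334 and 0.227).

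The other effectors ranged from -0.29 to 0.23 with miR-338-5p and from -0.15 to 0.60 with miR-421 over the 17 probes not called in either line. BST2, which tethers budding viruses, held the upper end. Its brightest probe gave 0.60, 0.06 and 1.13 with miR-421, on average 0.60 ± 0.53 (SD, n = 3; limma adjusted p 0.11), and -0.33, -0.66 and 0.13 with miR-338-5p. Its other probe was the single tested member probe on which all miR-338-5p arrays lay below all miR-421 arrays. USP18, which removes ISG15 from proteins and restrains the interferon receptor, was 0.48 ± 0.37 with miR-421 (0.0677) and was called with the image software's ratio (0.71, 0.0433).

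Dim probes lay nearer to 0 on this scale, where an offset of 50 is added to both dyes, than by the image software. The 18 dim tested member probes had a mean log2 intensity under 6.5. The median size of their log2 ratio was 0.08 with miR-421, and 0.54 by the image software. In the other miRNA line these sizes were 0.1 and 0.41. For the 24 brighter probes they were 0.45 and 0.49 with miR-421, and 0.29 and 0.36 in the other line. How much of the gap for dim probes comes from the offset, and how much from scatter of dim spots, was not tested. IFIT1, an inhibitor of translation of viral RNA, was 0.28 ± 0.06 with miR-421 (SD, n = 3; limma adjusted p 0.0556), 1.01 with background subtraction (0.0481) and 1.23 with the software's ratio (0.0415). SAMHD1, which lowers the nucleotide pool that reverse transcription needs, was -0.15 on its dim probe and -1.25 with background subtraction (0.0471), against 0.04 on its brighter probe. Subtraction and the software's ratio both added miR-421 calls on IFIT1, PSMB8 and DTX3L. Subtraction added SAMHD1 and the software's ratio USP18. IFIT1 and USP18 were higher and the others lower. The same treatments ended the miR-421 calls on B2M (0.0651 and 0.0919), PSMB9 (0.0566 and 0.0864) and TAP1 (0.116 and 0.191). Without background correction, which also has no offset, IFIT1 was called with miR-421 (0.50, limma adjusted p 0.043). PSMB8 (-0.43, 0.118), DTX3L (-0.30, 0.0703), the dim SAMHD1 probe (-0.29, 0.117) and USP18 (0.55, 0.0532) were not. B2M, PSMB9 and TAP1 kept their calls there (0.0272, 0.0229 and 0.0443).

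**Figure D4:**
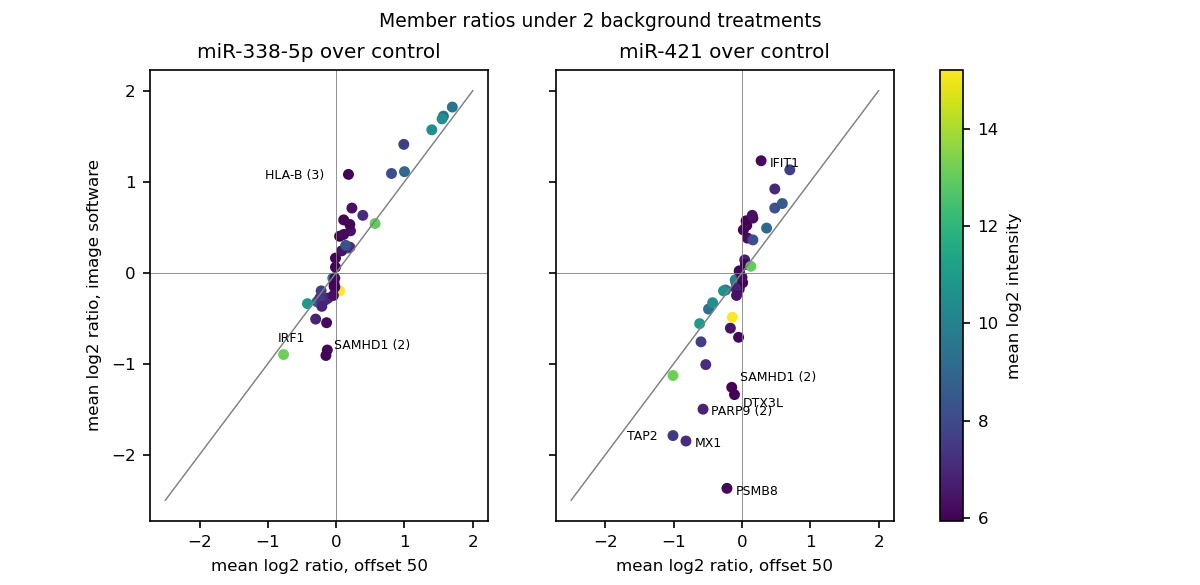
Mean log2 ratio over control of the 42 tested member probes after normexp with an offset of 50 (horizontal axis) and from the image software (vertical axis), coloured by mean log2 intensity, for each line. The grey line marks equal values. Probes far from it include dim ones, such as PSMB8 with miR-421 (-0.22 against -2.37). They also include MX1 (-0.82 against -1.85), TAP2 and the second PARP9 probe with miR-421, whose mean log2 intensity was above 6.5.

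**Figure D5:**
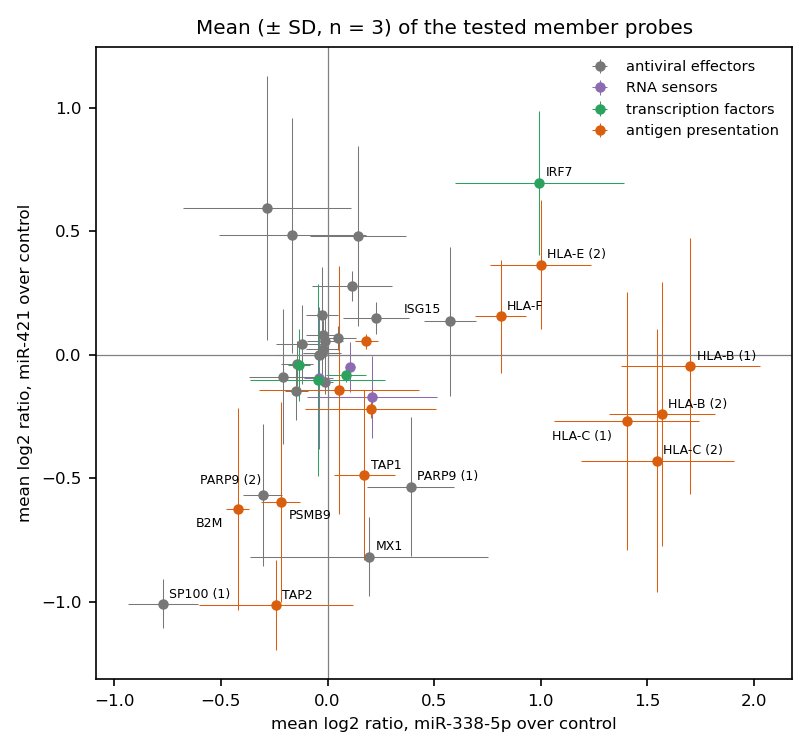
Mean log2 ratio over control (± SD, n = 3) of the tested member probes with miR-338-5p (horizontal) and miR-421 (vertical), coloured by role, with the probes called in either line named. IRF7 is called higher and SP100 lower in both, and the 4 bright HLA-B and HLA-C probes lie far right with miR-421 values between -0.43 and -0.05.

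The rest of the pathway was read from 4 lists. Of interferons and their receptors, 15 of 20 names were on the array and 8 probes of 7 genes were tested, with 0 called with miR-338-5p by limma (2 at an unadjusted p below 0.05) and 1 higher and 1 lower with miR-421. IFNGR1, the ligand-binding chain of the interferon gamma receptor, fell by 0.82 ± 0.21 with miR-421 (SD, n = 3; limma adjusted p 0.0146), and not without replicate 1 (-0.70, 0.0533) or replicate 2 (-0.91, 0.0636). IL10RB, a chain of the interferon lambda receptor, rose by 0.33 ± 0.10 (0.0322). That call was lost without any 1 of the miR-421 arrays (0.30 to 0.39, 0.0586 to 0.144) and without miR-338-5p replicate 3 (0.0528).

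Of 24 tested probes for sensing and signalling, 1 was higher and 2 lower in each line, beside the shares over all tested probes (3.76% and 5.26% with miR-338-5p, 9.01% and 12.5% with miR-421). TBK1, the kinase that activates IRF3 and IRF7, was lower in both lines, at -0.82 ± 0.08 with miR-338-5p (SD, n = 3; limma adjusted p 0.00685) and -1.31 ± 0.16 with miR-421 (0.00195), with all 6 arrays between -1.45 and -0.74, and both calls held in all 17 alternatives. EIF2AK2, the kinase PKR that halts translation on double-stranded RNA, was -0.82 ± 0.11 (0.0206) and -0.90 ± 0.33 (0.00918) on its brightest probe, and not called on a dim one (-0.15 and -0.17). DHX58, the sensor LGP2, was 1.096 ± 0.463 with miR-338-5p (0.0197) and 0.06 ± 0.03 with miR-421 (0.815), arrays 0.64, 1.09 and 1.56 against 0.06, 0.09 and 0.04. The miR-338-5p call on EIF2AK2 was lost with background subtraction (limma adjusted p 0.0532), median centring (0.0505), the software's ratio (0.0814) and the authors' table (0.0901). That on DHX58 was lost with median centring (0.89, 0.0627) and the line's own arrays (0.0714). Without 1 array calls were lost for EIF2AK2 in miR-338-5p (-0.88, -0.82 and -0.77 without its replicates 1, 2 and 3; -0.82 without miR-421 replicate 2), EIF2AK2 in miR-421 (-0.93 without replicate 2) and DHX58 (1.1 without miR-338-5p replicate 2, and without miR-421 replicate 2).

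Among 37 tested probes of other interferon-induced genes, 2 were higher and 2 lower with miR-338-5p, and 3 higher and 7 lower with miR-421, beside 3.76%, 5.26%, 9.01% and 12.5% over all tested probes. The IFITM proteins, which block entry of enveloped viruses, were lower with miR-421. IFITM1 was -1.20 ± 0.04 and -1.06 ± 0.06 on its 2 probes (SD, n = 3; limma adjusted p 0.00831 and 0.00604), IFITM2 -1.22 ± 0.10 (0.0163) and IFITM3 -1.07 ± 0.10 (0.0175). These genes are close copies, so how the signal divides among them is uncertain. With miR-338-5p the arrays spread widely, for IFITM3 at -0.47, 0.23 and -0.87, and only the dimmer IFITM1 probe was called among these 4 (-0.69 ± 0.32, 0.0267). ZC3HAV1, a protein that binds CG-rich viral RNA, was -1.11 ± 0.06 and -0.99 ± 0.21 (0.00525 and 0.00331) on 1 probe, while another was -0.01 and 0.17 and not called and the authors' deposited table gave -0.63 and -0.29. ISG20, an RNA exonuclease, was 1.103 ± 0.344 and 1.52 ± 0.36 (0.0216 and 0.00608), so members of 1 list moved in opposite directions in both lines. SP110, a relative of SP100, was 0.68 ± 0.30 with miR-338-5p (0.0465), C19orf66 was 0.38 ± 0.22 (0.0357) and IFIT5 -0.37 ± 0.09 with miR-421 (0.0183). All calls on IFITM1, IFITM2 and IFITM3 with miR-421 were lost without replicate 2 of that line (-1.20, -1.05, -1.17 and -1.07; 0.0508 to 0.0889). Those on IFITM2 and IFITM3 were also lost without the pool or replicate 1 (-1.27 and -1.21; -1.13 and -1.02). The miR-338-5p call on IFITM1 was lost without its replicates 1 (-0.68) and 3 (-0.53) and without the miR-421 pool or replicate 2 (0.0563 and 0.0636). ISG20 with miR-338-5p was not called without replicates 1, 2 or 3 (0.91, 1.17 and 1.23), nor SP110 (0.85, 0.56 and 0.63; also without the miR-421 pool or replicate 2, 0.0563 and 0.0925). IFIT5 was not called without miR-421 replicates 1 and 2 (-0.32 and -0.38). C19orf66 was not called without these (0.27 and 0.37) or without any 1 miR-338-5p replicate (0.0557, 0.0539 and 0.0562). Other processing ended calls too. SP110 was not called with median centring (0.52, limma adjusted p 0.131) or the software's ratio (1.17, 0.0643), among others. Nor was C19orf66 with background subtraction (0.51, 0.0749) or median centring (0.26, 0.104), among others.

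Of 35 tested probes of other antigen presentation genes, 4 were higher and 0 lower with miR-338-5p, and 1 was higher and 1 lower with miR-421, beside the same shares of 3.76%, 5.26%, 9.01% and 12.5%. HLA-G, a class I chain of the placenta, was 1.18 ± 0.29 with miR-338-5p (SD, n = 3; limma adjusted p 0.0197) and -0.18 ± 0.41 with miR-421. TAPBP, which bridges the transporter and class I molecules, was called higher in both lines on its brightest probe, by 0.38 ± 0.12 (0.0292) and 0.36 ± 0.09 (0.0187), but with median centring it was 0.17 and 0.24 and not called (0.416 and 0.239). Its 2 other probes were not called. MICB, a stress ligand for natural killer cells, was 0.48 ± 0.16 with miR-338-5p (0.0407), and its spot on the miR-421 pool array was left out. That call was lost with background subtraction (0.92, limma adjusted p 0.06) and with outlier spots kept (0.48, 0.257), among others. HLA-DMB, which loads class II molecules, was -2.31 ± 0.14 with miR-421 (0.0379) and -1.30, 0.75 and -2.64 with miR-338-5p. NLRC5, the activator of class I promoters, was 0.10 and 0.09 and not called. Without 1 array calls were lost for HLA-G (1.25, 1.28 and 1.01 without miR-338-5p replicates 1, 2 and 3, and 1.18 without miR-421 replicate 2) and HLA-DMB (-2.24, -2.37 and -2.33 without the pool and miR-421 replicates 1 and 2, and -2.31 without miR-338-5p replicate 1). They were also lost for TAPBP with miR-338-5p (0.35, 0.34 and 0.45 without its replicates 1, 2 and 3) and with miR-421 (0.37 and 0.32 without replicates 1 and 2), and for MICB (0.53, 0.52 and 0.38 without miR-338-5p replicates 1, 2 and 3). Leaving out the miR-421 pool or replicate 2 also ended the miR-338-5p calls on TAPBP (0.0556 and 0.0607) and MICB (0.0563 and 0.0764).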

How the data were processed

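RNA was measured on 6 arrays, 3 per miRNA line, and their number limits the precision. Per the file headers, the authors read the scans with Feature Extraction 11.5.1.1; the deposited intensity values are spot means and local background medians in both dyes, not normalized. The deposited log10 ratio, per the file headers, followed background subtraction and dye normalization. The authors also deposited 1 table of log2 ratios per gene name, and its normalization is not given in the sources used here. Coordinates are hg19, per the file headers.

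Background was corrected by normexp (offset 50) and arrays by loess, with control and outlier spots left out. Probes well above background in either dye on 3 of 6 arrays were kept (27503 of 58201), and spots of 1 probe were averaged. limma 3.58.1 (R 4.3.3) fitted 1 mean per line over all 6 arrays, two-sided, with eBayes. Tests of ratios against 0 do not contain the spread of control cultures. A gene's median used its brightest tested probe. The scripts were tested on simulated data.

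The members and lists were chosen with earlier results of these data known. The rule named members called in any comparison, the 6 largest mean ratios per line, the 3 largest differences, and DDX58, IFIH1, STAT2, IRF9, ISG15, B2M, TAP1 and PSMB8; of pathway lists, called genes, at most 8 per list. BST2, USP18, IFIT1, SAMHD1, DTX3L, IRF1, NLRC5 and LUM were named after their values were seen. Some genes of the pathway and marker lists enter the counts but are not reported here by name. All 6 arrays lay on 1 slide. Alternatives covered background, normalization, ratio source, filter, outliers, variance, arrays in the fit, arrays left out, probes per gene and the replicate block.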

Additional observations from a re-analysis of the deposited data

Results flagged for a closer look

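On the brightest PARP9 probe every miR-338-5p array was above control and every miR-421 array below it. The log2 difference of 0.92 between lines missed the threshold (limma adjusted p 0.136). On the other PARP9 probe the miR-338-5p arrays were below control too (-0.41, -0.24 and -0.26) and the difference was 0.26 (limma adjusted p 0.515). TAP1 had opposite signs as well, with a difference of 0.66 (limma adjusted p 0.231), but 1 miR-338-5p array lay at 0.007, and with median centring the miR-338-5p mean was -0.02.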

How the results depend on the processing

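Of the 9 member probes called in each line, 9 and 9 kept their sign in every alternative able to give a value, and 0 and 0 kept their call in every one. With miR-338-5p the count of 9 became 4 genes in the authors' table, 3 with the line's own arrays alone and 1 to 10 with 1 array left out. The count over all tested probes went from 2480 to 984 genes, to 211 and to between 416 and 3658 in these settings. Its median of 0.05 became -0.034 with median centring (all genes -0.078), 0.202 in the authors' table and 0.013 without miR-338-5p replicate 2. With miR-421 the count of 9 became 3 without a filter on dim probes, 4 with the line's own arrays and 1 to 8 with 1 array left out. Over all tested probes 5912 calls became 4099, 4013 and between 627 and 5502 in these settings. For miR-421 the member median changed as follows. Its median of -0.045 became -0.09 without background correction, -0.115 with background subtraction, -0.10 with the image software's ratio, -0.09 in the authors' table -0.088 with both dyes above background on all arrays, -0.01 without the pool and -0.08 without miR-421 replicate 2. Between the lines 0 member probes were called except with trended and robust variance, which called 3 (both bright HLA-B probes, limma adjusted p 0.0391 and 0.0478, and the second HLA-C probe, 0.0382). The median difference of 0.167 became 0.24 with background subtraction, 0.025 with median centring, 0.229 with the software's ratio, 0.279 in the authors' table, 0.067 without a filter, 0.103 with the mean of a gene's probes and 0.09 to 0.188 with 1 array left out. The cause of these shifts was not tested, beyond fewer arrays where arrays were left out. Lines share the numbers 1 and 2 only: deviations of same-numbered arrays correlated at -0.14 and -0.212, so they were not paired. With the replicate block on these arrays 0 member probes were called and the median difference was 0.125.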
